A study of Mus musculus with 12 samples.

Results

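Liver RNA from mice given T3 alone was set against liver RNA from untreated mice. The comparison took 6 of the 12 arrays of the series, 3 per group, chosen by their labels with no measured value involved. The gene lists used below, by contrast, were written with earlier results of these data known. T3 (triiodothyronine, the active thyroid hormone, given as L-T3) was injected into the peritoneum daily for 3 days. The control mice are labelled as having received no injection. All mice were C57BL/6 males aged 8 weeks. The other 6 arrays came from mice given XCT790, an inverse agonist of the orphan nuclear receptor ESRRA, for 4 days with T3 on the last 3 days, or XCT790 alone for 4 days. Those arrays served for the estimate of spread and for another pair of groups with and without T3.

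The hormone and the repeated injection cannot be told apart in T3 against control, because only the T3 mice were injected; both groups of the XCT790 pair were injected. The sources used here give neither dose nor vehicle, so whether both groups of the XCT790 pair had equally many injections is not known. No label says whether the 3 arrays of a group came from separate mice, so p-values measure the spread between these samples, which may be technical.

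Thyroid hormone acts through nuclear receptors that sit on DNA with a retinoid X receptor partner. Without hormone they recruit corepressors, and T3 exchanges these for coactivators, while other genes are lowered by the hormone. In liver the pathway is known for its control of cholesterol and bile acid metabolism, fat synthesis and burning, and deiodination of the hormone itself. The account below covers all measured genes, with weight on groups outside those classic targets.

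Summed probe intensity was between 17656700 and 18184100 on the T3 arrays and between 17355600 and 19662100 on the control arrays. Probes with a detection p under 0.05 made up 32.9% to 35.3% of all probes on the T3 arrays and 34.2% to 35.6% on the control arrays. Normalized log2 intensities correlated at 0.989 to 0.991 between arrays of the same group and at 0.972 to 0.978 between a T3 and a control array. Of 45281 probes 17218 were detected on at least 3 of the 12 arrays, and they gave 9747 named genes. Hepatocyte markers summed to between 251927 and 255596 intensity units on T3 arrays and between 254537 and 270779 on control arrays. Among 13 tested hepatocyte markers Asgr2, a subunit of the asialoglycoprotein receptor, fell by 0.83 (SE 0.14, adjusted p = 0.0018), and Hnf4a, a master transcription factor of hepatocytes, rose by 0.46 (SE 0.12, adjusted p = 0.024) on the log2 scale; Hnf4a was no longer called without control array 1, control array 3, T3 array 2 or T3 array 3. Alb, the gene of serum albumin, was read by a kept probe close to background, at 4.95, 4.84 and 4.75 in T3 livers, against 6.94, 5.85 and 5.11 in control livers, so that probe is no measure of albumin.

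In the T3 livers 1574 of the 9747 genes differed from control at an adjusted p under 0.05 in limma's moderated test, 16.1% of those tested. With T3 706 genes rose (7.24%) and 868 fell (8.91%). The median rise was 0.68 and the median fall was -0.61 on the log2 scale. At least 2-fold differences were found in 308 genes, 171 of them higher and 137 lower, and 10 rises and 7 falls passed 3 on the log2 scale. All 3 T3 arrays stood above all 3 control arrays in 15.7% of genes tested and below them in 19.1%. Among the 1574 called genes the T3 and control arrays did not overlap in 1565. Where a called gene is described below as not overlapping, that therefore adds little to its call.

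The XCT790 pair shares no array with T3 and control, so it repeats the T3 difference in other samples. Of the 1574 called genes 1418 (90.1%) moved in the same direction there, against 64.1% of the genes not called. Among 706 rises 628 kept their direction and among 868 falls 790 did. In that pair 1481 genes were called (15.2% of those tested). The calls of both pairs met in 789 genes with the same direction, which is 50.1% of the calls of T3 against control and 53.3% of the calls with XCT790, and in 13 genes with opposite directions.

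**Figure D1:**
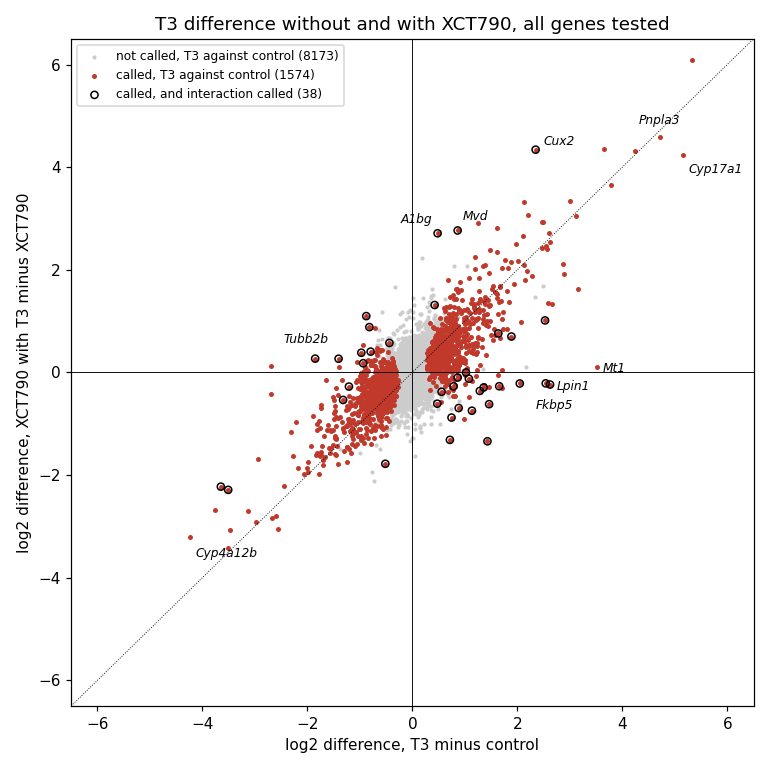
Each point is a gene. The horizontal axis is the log2 difference T3 minus control and the vertical axis is the log2 difference between XCT790 with T3 and XCT790 alone. The 1574 called genes are red, and black rings mark the 38 of them whose 2 differences differed from each other. Most red points lie in the lower left and upper right corners, 1418 of 1574.

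Genes sorted by the letters that start their symbols showed where the calls were dense. Aldo-keto reductases (Akr) had 6 of 10 tested genes called, 1 higher and 5 lower. Carboxylesterases (Ces) had 1 higher and 5 lower of 12, hydroxysteroid dehydrogenases (Hsd) 1 higher and 6 lower of 14, and cytochromes P450 (Cyp) 9 higher and 18 lower of 55. Solute carriers (Slc) had 30 higher and 26 lower of 195. Large-subunit proteins of the mitochondrial ribosome (Mrpl) had 2 of 45 called and zinc finger genes (Zfp) 20 of 172. These counts stand beside 16.1% called over all genes tested. The counts of gene lists below stand beside 7.24% higher and 8.91% lower over all genes tested. Of the 48 lists 39 had a called share above 16.1%, so a share above it is common among these lists.

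**Figure D2:**
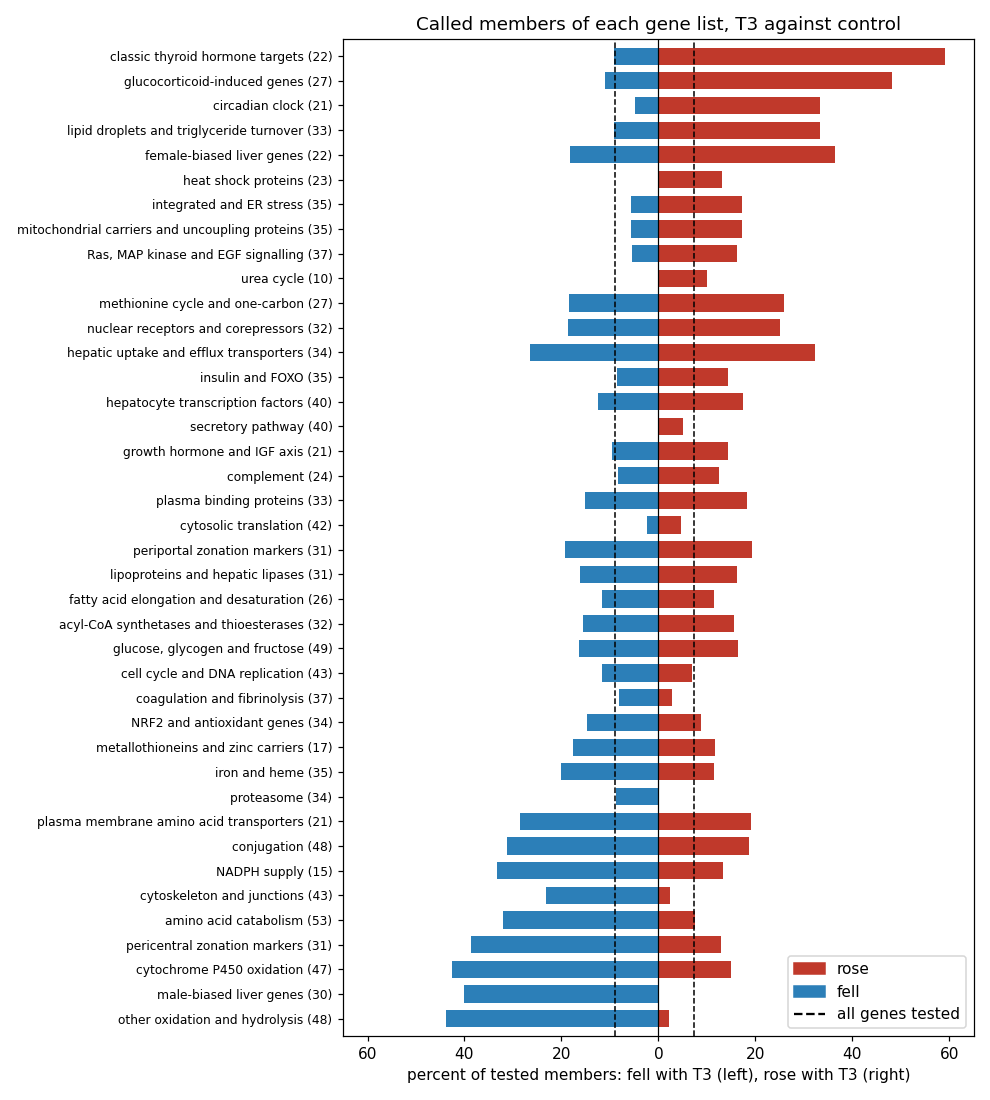
Bars give the percentage of tested members that rose (right, red) or fell (left, blue) with T3 in each of 40 gene lists, with the number tested in brackets. Dashed lines mark the percentages over all genes tested, 7.24% higher and 8.91% lower. The list at the bottom, other oxidation and hydrolysis, had 21 of 48 members lower and 1 higher.

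The largest rises included genes close to background in control livers. Cyp17a1, which encodes the steroid hydroxylase and lyase of androgen synthesis, read 12.59, 12.37 and 12.52 in T3 livers, against 7.10, 7.40 and 7.52 in control livers, and rose by 5.15 (SE 0.22, adjusted p = 6.1e-08) on the log2 scale. Pnpla3, a lipase of the lipid droplet surface, read 9.49, 9.66 and 9.56 in T3 livers, against 4.73, 5.16 and 4.68 in control livers, and rose by 4.71 (SE 0.25, adjusted p = 3e-07). Here and below, well above background means only a detection p under 0.05 on that array, and such a signal can still be dim. Pnpla3 was well above background in this sense on 1 of 3 control arrays, so its difference leans on control signal at the background. On that array, control array 2, it read 5.16, and the lowest detected signal there was 5.14. The T3 arrays of both genes lay close together and above all control arrays. Rnase2a, a ribonuclease of the eosinophil-associated family, read 9.34, 10.30 and 10.45 in T3 livers, against 4.58, 4.68 and 4.83 in control livers. It was not well above background on any control array and was at least 29-fold higher with T3 (adjusted p = 2.9e-06). Sspo, which encodes the secreted protein SCO-spondin, read 8.35, 8.51 and 8.15 in T3 livers, against 4.51, 4.55 and 4.58 in control livers. It too was not well above background on the control arrays, and it was at least 8.98-fold higher (adjusted p = 7.5e-09), the lowest adjusted p of all genes tested. Such bounds set the T3 mean against the higher of the probe's own signal and the lowest detected signal on each control array.

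Several of the other large rises belong to genes better known from other tissues. Crybb3, a crystallin of the eye lens, read 8.18, 9.96 and 10.42 in T3 livers, against 5.00, 5.64 and 5.20 in control livers. The first T3 array was well below the other two, and still above every control array (rose by 4.24 (SE 0.46, adjusted p = 8.2e-05)). Crybb3, Tff3 and Wfdc12 were well above background on 2 of 3 control arrays. Ttbk1, a kinase of the microtubule protein tau, read 8.67, 8.77 and 9.08 in T3 livers, against 6.09, 5.63 and 5.77 in control livers, and Synpo, an actin-associated protein of kidney podocytes, read 10.34, 10.32 and 10.33 in T3 livers, against 8.02, 7.20 and 7.96 in control livers. Their T3 arrays lay within narrow ranges above all control arrays. Ttbk1 rose by 3.01 (SE 0.18, adjusted p = 6e-07) and Synpo rose by 2.60 (SE 0.19, adjusted p = 2.3e-06). Tff3, a trefoil peptide of mucus layers, rose by 3.12 (SE 0.35, adjusted p = 9.5e-05), and Wfdc12, a small secreted protein of the whey acidic protein family, rose by 2.89 (SE 0.20, adjusted p = 2.2e-06). Ces4a, a carboxylesterase, rose by 2.87 (SE 0.25, adjusted p = 1.4e-05); it was well above background on 1 of 3 control arrays. Pfkfb4, which makes and breaks the sugar phosphate that drives glycolysis, read 8.67, 9.67 and 9.78 in T3 livers, against 5.64, 5.59 and 5.93 in control livers, and rose by 3.65 (SE 0.27, adjusted p = 2.6e-06).

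Among the largest falls were enzymes, transporters and 1 transcription factor. Cyp4a12b, a fatty acid hydroxylase of male mouse liver, read 8.00, 8.65 and 7.84 in T3 livers, against 12.33, 12.64 and 12.23 in control livers, and fell by 4.24 (SE 0.22, adjusted p = 3e-07) on the log2 scale. Olig1, a transcription factor named for oligodendrocytes, read 6.18, 5.98 and 5.86 in T3 livers, against 9.63, 9.27 and 9.65 in control livers, and fell by 3.51 (SE 0.14, adjusted p = 3.9e-08). The T3 and control ranges of both genes were far apart. Hsd17b6, a hydroxysteroid dehydrogenase, was not well above background with T3, at 4.97, 5.09 and 4.87 in T3 livers, against 8.65, 8.97 and 8.59 in control livers, and was at least 11.4-fold lower (adjusted p = 1.4e-07). Serpina7, which encodes thyroxine-binding globulin, the main plasma carrier of thyroid hormone in humans, was likewise not well above background with T3 and at least 9.35-fold lower (adjusted p = 7.1e-07). The long noncoding RNA Hectd2os was at least 8.5-fold lower on the same terms (adjusted p = 8.4e-08), with 4.85, 4.51 and 4.61 in T3 livers, against 8.52, 8.03 and 8.37 in control livers. These 3 were well above background on every control array and on no T3 array.

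Other large falls touched signalling, water and lipid handling. Sucnr1, the receptor for succinate, read 6.89, 6.94 and 6.74 in T3 livers, against 10.06, 9.78 and 9.53 in control livers, and fell by 2.93 (SE 0.20, adjusted p = 1.8e-06). Etnppl, which breaks down phosphoethanolamine, read 7.06, 6.41 and 6.16 in T3 livers, against 9.51, 9.57 and 9.51 in control livers, and fell by 2.98 (SE 0.20, adjusted p = 1.4e-06). Both were low on all T3 arrays. Ddah1, which degrades methylated arginines that block nitric oxide synthesis, fell by 2.44 (SE 0.17, adjusted p = 1.9e-06), and Apol7a, of the apolipoprotein L family, fell by 2.28 (SE 0.14, adjusted p = 8.7e-07). Krt23, a keratin, fell by 2.68 (SE 0.34, adjusted p = 0.00026); it was well above background on 2 of 3 T3 arrays. Angptl8, a secreted inhibitor of lipoprotein lipase, read 8.63, 8.02 and 8.77 in T3 livers, against 10.08, 10.65 and 11.63 in control livers, with a wide spread among controls (fell by 2.31 (SE 0.38, adjusted p = 0.0015)). Moxd1, a monooxygenase-like gene, read 4.65, 5.07 and 5.33 in T3 livers, against 6.02, 7.36 and 9.74 in control livers. Its control arrays spanned more than its mean difference, and it fell by 2.69 (SE 0.71, adjusted p = 0.021), with 1 of 3 T3 arrays well above background, a difference no longer called without T3 array 1 or T3 array 2.

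**Figure D3:**
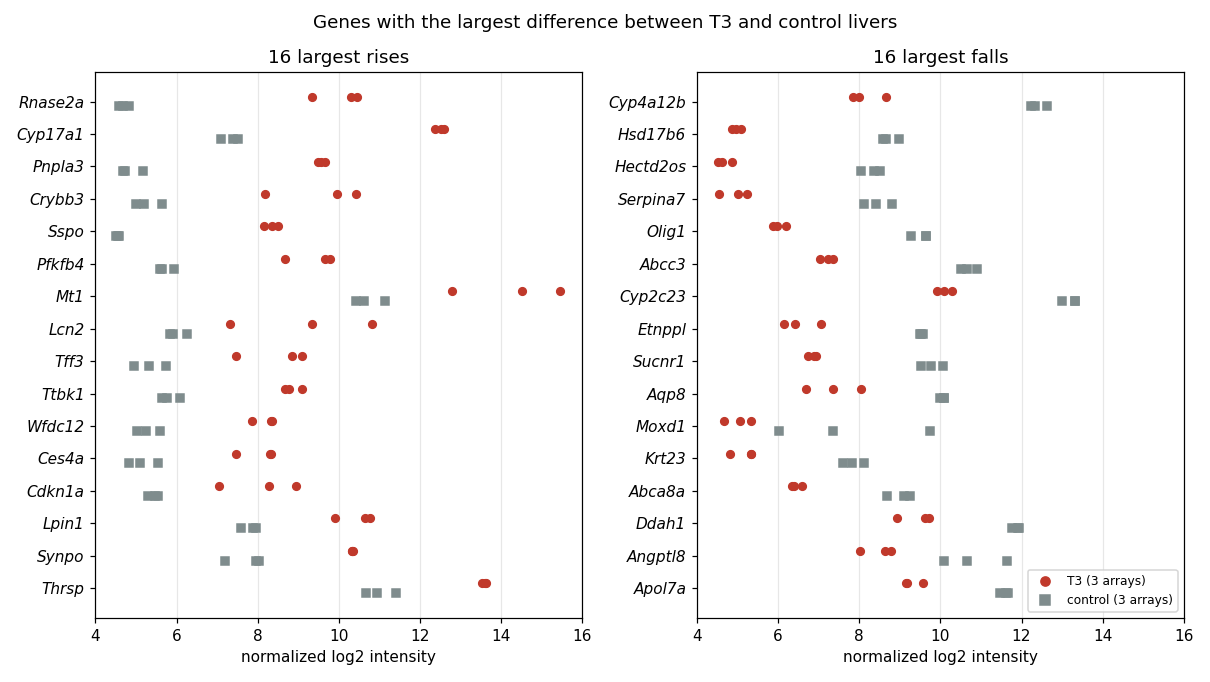
Normalized log2 intensity (horizontal axis) of the 16 genes with the largest rise (left panel) and the 16 with the largest fall (right panel), with 3 T3 arrays as red circles and 3 control arrays as grey squares. The T3 and control arrays overlap in none of the 32 genes, since genes were shown only where they did not; Mt1, Lcn2 and Crybb3 have a lower first T3 array, and Moxd1 has scattered controls.

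Promoter sequence was read for the 32 genes of the plot of largest changes, to show what lies next to genes that moved strongly in opposite directions. Thyroid hormone receptors are known to bind the half-site AGGTCA, best as a direct repeat spaced by 4 bases. RefSeq's table (GRCm38.p6) held the 250 bases before the transcription start for 13 of 16 risers and 12 of 16 fallers. The half-site, on either strand, was in 3 of the 13 and 0 of the 12. Over all genes it stood in 17.1% of 572 risen genes with a promoter, 14.2% of 704 fallen genes and 13.5% of 7906 tested genes. Among genes that changed at least 2-fold the order was the other way, with a half-site in 16 of 132 risen and 18 of 106 fallen genes. The strict repeat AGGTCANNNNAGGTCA was in 0 of the 7906, and the looser AGGNCANNNNAGGNCA in 20 of them (0.253%), 3 risen and 3 fallen. Half-sites inside a looser repeat can overlap the first search. The windows of Sspo and Lpin1, both risen, are shown for the half-site, and that of Hectd2os, fallen, for the looser repeat; capitals mark the matches, with TGACCT the reverse complement of the half-site. They run 5′ to 3′ on the gene's own strand.
Sspo, chr6:48447924-48448173, plus strand: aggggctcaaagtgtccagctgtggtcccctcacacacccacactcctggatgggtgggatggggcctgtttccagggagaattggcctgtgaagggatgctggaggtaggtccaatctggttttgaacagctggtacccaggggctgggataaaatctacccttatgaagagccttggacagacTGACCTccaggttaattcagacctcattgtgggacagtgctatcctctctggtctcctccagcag
Lpin1, chr12:16610967-16611216, minus strand: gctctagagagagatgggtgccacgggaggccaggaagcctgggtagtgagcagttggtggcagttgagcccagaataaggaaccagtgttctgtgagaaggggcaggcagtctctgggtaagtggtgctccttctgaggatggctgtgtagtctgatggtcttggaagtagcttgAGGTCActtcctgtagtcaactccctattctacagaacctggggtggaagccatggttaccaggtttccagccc
Hectd2os, chr19:36689480-36689729, minus strand: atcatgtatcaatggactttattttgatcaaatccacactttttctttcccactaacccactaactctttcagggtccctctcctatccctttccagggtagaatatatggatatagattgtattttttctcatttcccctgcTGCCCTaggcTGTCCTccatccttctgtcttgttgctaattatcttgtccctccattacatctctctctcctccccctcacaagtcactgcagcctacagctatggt
A match is a run of letters, and no binding was measured in these livers.

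Among genes whose level in mouse liver depends on sex, the called male-biased ones were all lower in T3 than in control livers. Of 30 tested male-biased genes 12 fell with T3 and 0 rose, with a median of -0.42 on the log2 scale, against 868 lower and 706 higher of 9747 and a median of -0.0074 over all genes. At an unadjusted p under 0.05, 14 were lower and 1 was higher. The median was -0.25 without control array 3, and 8 of the 30 differences were above 0. In 5 settings, such as offset 50 and the deposited matrix, 1 male-biased gene was called higher. In the XCT790 pair 3 male-biased genes rose with T3 and 11 fell, with a median of -0.26. Keg1, a glycine acyltransferase-like gene, read 11.05, 11.38 and 11.25 in T3 livers, against 13.19, 13.35 and 13.11 in control livers, and fell by 1.99 (SE 0.12, adjusted p = 6e-07). Mup21, a major urinary protein, read 12.64, 12.93 and 12.77 in T3 livers, against 14.61, 14.63 and 15.14 in control livers, and fell by 2.01 (SE 0.15, adjusted p = 2.6e-06). The T3 arrays of both were below every control array. Cyp2u1, another fatty acid hydroxylase, was not well above background with T3 and was at least 3.13-fold lower (adjusted p = 4.2e-05). C6, a component of the membrane attack complex of complement, fell by 1.15 (SE 0.13, adjusted p = 8.6e-05). Mup20, the male pheromone protein darcin, was not called, with 13.47, 13.64 and 13.54 in T3 livers, against 13.25, 13.02 and 13.35 in control livers. Probes of near-identical genes, such as Cyp4a12b and its neighbour or the Mup genes, can bind each other's RNA, so their values may be shared.

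The female-biased genes were mixed, with 8 of 22 higher and 4 lower and a median of 0.34. In the XCT790 pair 9 of them rose with T3 and 5 fell, with a median of 0.11. Cyp17a1 was the largest rise of this list. Cux2, a transcription factor known to raise female and lower male genes in mouse liver, read 7.53, 6.56 and 6.95 in T3 livers, against 4.52, 4.60 and 4.86 in control livers. It was not well above background in control livers and was at least 3.58-fold higher with T3 (adjusted p = 6.5e-05). Sult1d1, a sulfotransferase, read 11.01, 11.15 and 11.05 in T3 livers, against 9.43, 9.34 and 9.53 in control livers, and rose by 1.64 (SE 0.12, adjusted p = 2.3e-06), though its other kept probe had the opposite sign. Abcd2, a peroxisomal fatty acid transporter, was at least 1.73-fold higher (adjusted p = 0.0099). Against these, Aqp8, a water channel, read 8.04, 7.34 and 6.68 in T3 livers, against 10.08, 10.08 and 10.00 in control livers, and fell by 2.70 (SE 0.33, adjusted p = 0.00018). Without control array 2 or without T3 array 1 the list had 5 called rises, and without control array 1 or T3 array 3 it had 2 called falls.

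**Figure D4:**
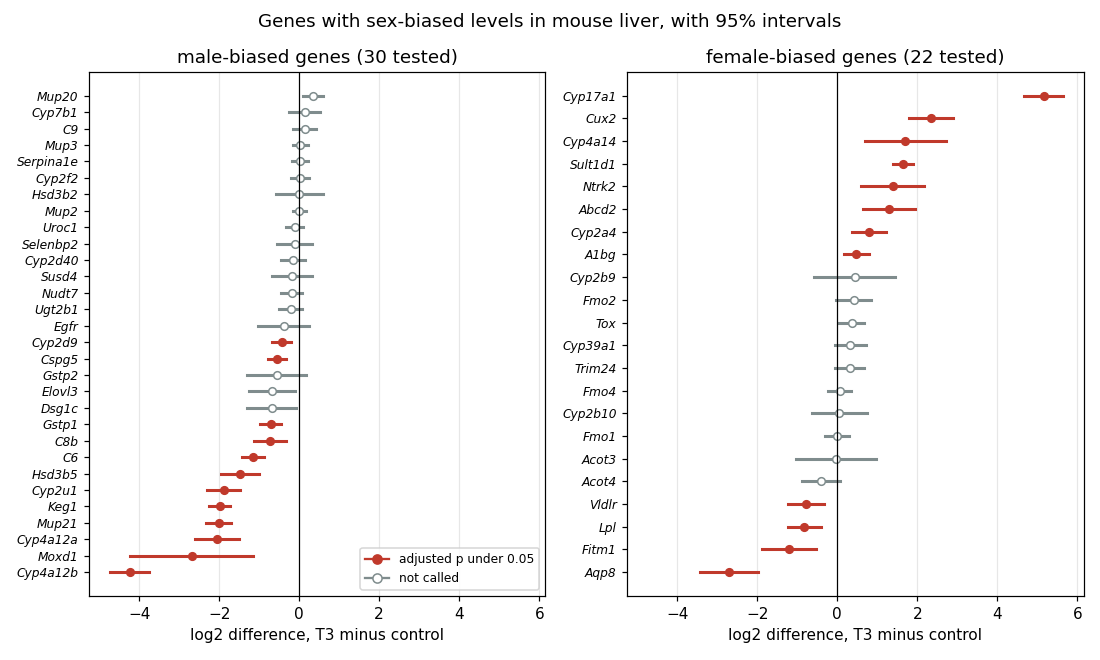
Points are log2 differences, T3 minus control, with 95% intervals from limma for 30 male-biased genes (left panel) and 22 female-biased genes (right panel). Red filled points were called and open points were not. All 12 called male-biased genes are left of 0, while called female-biased genes are on both sides, from Aqp8 at -2.70 to Cyp17a1 at 5.15.

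The growth hormone axis, which sets the sex-biased pattern in mouse liver, had 3 of 21 tested genes higher and 2 lower. Stat5a, a transcription factor downstream of the growth hormone receptor, read 8.82, 8.74 and 8.57 in T3 livers, against 7.12, 6.61 and 7.12 in control livers, and rose by 1.76 (SE 0.19, adjusted p = 6.9e-05). Ghr, the receptor itself, read 11.90, 12.01 and 12.11 in T3 livers, against 12.62, 12.65 and 12.85 in control livers, and fell by 0.70 (SE 0.10, adjusted p = 0.00067). The groups did not overlap in either gene. Igf1, the hormone that growth hormone induces in liver, was not called, with 13.08, 13.04 and 13.19 in T3 livers, against 12.81, 12.90 and 12.97 in control livers and a difference of 0.21 (SE 0.11, adjusted p = 0.24). Irs2, an adaptor of the insulin receptor, fell by 0.93 (SE 0.23, adjusted p = 0.018), and that call was lost without control array 2, which left 1 fall in the list.

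Among enzymes that oxidize drugs, fatty acids and steroids more fell than rose. Of 47 tested members of the cytochrome P450 system 20 fell and 7 rose, with a median of -0.32. Cyp2c23, known in rat as an epoxygenase of arachidonic acid, read 10.09, 9.91 and 10.28 in T3 livers, against 13.32, 13.33 and 13.01 in control livers, and fell by 3.12 (SE 0.14, adjusted p = 1e-07). Cyp4v3, a fatty acid hydroxylase, read 11.62, 11.70 and 11.65 in T3 livers, against 12.99, 13.11 and 13.21 in control livers, and fell by 1.45 (SE 0.11, adjusted p = 3.3e-06). Cyp1a2, which metabolizes caffeine and aromatic amines, read 12.09, 11.51 and 11.91 in T3 livers, against 13.32, 13.21 and 13.39 in control livers, and fell by 1.47 (SE 0.14, adjusted p = 2.9e-05). In all of these the highest T3 array stayed below the lowest control array. Cyp2c29 fell by 1.55 (SE 0.20, adjusted p = 0.00023). Cyp7a1, which starts the main route from cholesterol to bile acids, went the other way, with 12.61, 11.49 and 12.12 in T3 livers, against 9.27, 10.22 and 10.53 in control livers, and rose by 2.06 (SE 0.32, adjusted p = 0.00095).

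The list of other oxidizing and hydrolysing enzymes had the largest surplus of falls over rises among the 40 lists, with 21 of 48 lower and 1 higher and a median of -0.34. Leaving out any 1 of the 6 arrays left between 19 and 21 of them lower. Ces1f read 11.88, 11.64 and 11.14 in T3 livers, against 13.15, 13.23 and 12.97 in control livers, and fell by 1.56 (SE 0.16, adjusted p = 4.7e-05). Ces1e fell by 1.71 (SE 0.18, adjusted p = 6.5e-05) and Ces2e fell by 1.75 (SE 0.19, adjusted p = 6.6e-05); all 3 encode carboxylesterases, which cleave ester drugs and lipids, and close copies may share probe signal. Adh4, an alcohol dehydrogenase, read 10.05, 10.48 and 10.28 in T3 livers, against 11.50, 11.43 and 11.33 in control livers, and fell by 1.15 (SE 0.11, adjusted p = 2.9e-05). Ephx1, the microsomal epoxide hydrolase, read 12.10, 11.63 and 11.45 in T3 livers, against 13.05, 12.74 and 12.81 in control livers, and fell by 1.14 (SE 0.15, adjusted p = 0.00033). Hsd11b1, which regenerates active glucocorticoid, fell by 0.82 (SE 0.12, adjusted p = 0.00071), and Hsd17b11, a dehydrogenase of lipid droplets, fell by 1.18 (SE 0.15, adjusted p = 0.0003). The exception was Adh7, which rose by 1.02 (SE 0.12, adjusted p = 0.00011), though its other kept probe pointed the other way and the call was lost when probes were averaged.

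Of 48 tested conjugating enzymes 15 fell and 9 rose, with a median of -0.24. Gstt1, a glutathione transferase of the theta class, read 13.55, 13.48 and 13.44 in T3 livers, against 11.65, 11.57 and 11.77 in control livers, and rose by 1.83 (SE 0.11, adjusted p = 7.3e-07). Gstt3, of the same class, rose by 1.93 (SE 0.13, adjusted p = 1.7e-06). Gstm1, a mu class transferase, read 12.43, 11.89 and 12.01 in T3 livers, against 13.09, 13.31 and 13.15 in control livers, and fell by 1.07 (SE 0.14, adjusted p = 0.00024). Papss2, which makes the activated sulfate donor, read 13.44, 13.21 and 13.32 in T3 livers, against 11.91, 11.68 and 11.60 in control livers, and rose by 1.60 (SE 0.12, adjusted p = 2.6e-06). Sult5a1, a sulfotransferase, read 9.53, 9.43 and 9.30 in T3 livers, against 6.82, 7.37 and 7.78 in control livers, and rose by 2.10 (SE 0.22, adjusted p = 6.7e-05). Nat8, an acetyltransferase, fell by 1.83 (SE 0.21, adjusted p = 0.00012). Nnmt, which methylates nicotinamide, rose by 1.16 (SE 0.15, adjusted p = 0.00028), and it was also high with XCT790 alone, at a mean of 13.58.

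Membrane transporters moved both ways, with 11 of 34 higher and 9 lower. Abcc3, which exports glucuronides and bile acids to blood, read 7.35, 7.24 and 7.04 in T3 livers, against 10.90, 10.51 and 10.65 in control livers, and fell by 3.48 (SE 0.13, adjusted p = 1.9e-08). Abca8a, a transporter of the lipid-carrying A family, read 6.40, 6.59 and 6.35 in T3 livers, against 9.11, 9.24 and 8.69 in control livers, and fell by 2.57 (SE 0.14, adjusted p = 3e-07). Slco2a1, a prostaglandin carrier, fell by 1.47 (SE 0.16, adjusted p = 8.6e-05). On the other side Slc22a7, an organic anion carrier, read 10.26, 10.21 and 10.47 in T3 livers, against 7.82, 7.75 and 7.95 in control livers, and rose by 2.47 (SE 0.15, adjusted p = 6.7e-07). Abca3, a phospholipid transporter, read 12.52, 12.37 and 12.25 in T3 livers, against 10.92, 10.90 and 10.87 in control livers, and rose by 1.48 (SE 0.098, adjusted p = 1.4e-06). Leaving out T3 array 2 left 7 rises in this list, and leaving out control array 2 left 5 falls.

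Of 53 tested genes of amino acid breakdown 17 fell and 4 rose, with a median of -0.23, and 13 of the 53 differences were above 0. Oat, ornithine aminotransferase, read 12.66, 11.87 and 12.33 in T3 livers, against 14.12, 13.93 and 14.03 in control livers, and fell by 1.74 (SE 0.19, adjusted p = 9.5e-05). Agxt, which detoxifies glyoxylate, read 10.92, 10.60 and 10.78 in T3 livers, against 11.58, 11.63 and 11.62 in control livers, and fell by 0.84 (SE 0.12, adjusted p = 0.00053). Prodh, proline dehydrogenase, read 12.99, 12.83 and 13.03 in T3 livers, against 12.02, 12.13 and 12.10 in control livers, and rose by 0.87 (SE 0.095, adjusted p = 8.3e-05). In each of these the 3 T3 arrays fell on 1 side of all control arrays. The rises numbered 2 without T3 array 3, and the falls numbered 10 without control array 1, 11 without T3 array 2 and 10 without T3 array 3, and 10 with median scaling. Auh, of leucine breakdown, fell by 0.90 (SE 0.13, adjusted p = 0.00065), but its other kept probe had the opposite sign.

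Of 10 tested genes of the urea cycle Arg1, arginase, alone was called: it rose by 0.35 (SE 0.10, adjusted p = 0.038), and leaving out any of control arrays 1 and 2 or the 3 T3 arrays ended that call. Ass1, argininosuccinate synthase, read 14.00, 13.71 and 13.98 in T3 livers, against 13.99, 14.11 and 14.31 in control livers, with overlapping groups, and Asl, the next enzyme, read 9.93, 9.89 and 9.82 in T3 livers, against 9.38, 9.66 and 9.68 in control livers. Slc25a15, the mitochondrial ornithine carrier, differed by 0.27 (SE 0.12, adjusted p = 0.15). The called share of the urea cycle list was 10%, below the 16.1% of all genes.

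One-carbon and methionine genes were called on both sides, 7 of 27 higher and 5 lower. Shmt1, cytosolic serine hydroxymethyltransferase, read 12.44, 12.56 and 12.36 in T3 livers, against 11.00, 11.04 and 11.23 in control livers, and rose by 1.36 (SE 0.12, adjusted p = 1.5e-05). Fpgs, which traps folates in cells, rose by 0.63 (SE 0.10, adjusted p = 0.0014). Chdh, choline dehydrogenase, read 6.83, 6.96 and 6.99 in T3 livers, against 8.14, 8.24 and 8.35 in control livers, and fell by 1.32 (SE 0.13, adjusted p = 4e-05). Gnmt, a major methyltransferase of liver that uses glycine, read 14.06, 13.77 and 13.69 in T3 livers, against 14.52, 14.62 and 14.41 in control livers, and fell by 0.68 (SE 0.14, adjusted p = 0.0054). The falls in this list numbered 3 without control array 2, control array 3 or T3 array 3. Among amino acid carriers of the cell membrane 4 of 21 rose and 6 fell; Slc6a6, the taurine carrier, fell by 0.86 (SE 0.13, adjusted p = 0.0011), Slc38a3, a glutamine carrier, fell by 0.61 (SE 0.12, adjusted p = 0.0039), and Slc38a2, a neutral amino acid carrier, rose by 1.03 (SE 0.21, adjusted p = 0.0053). Their rises numbered 2 without control array 2, control array 3, T3 array 2 or T3 array 3.

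Of 49 genes of sugar metabolism 8 were higher and 8 lower, with a median of 0.027. Beside Pfkfb4, Pdp2, a phosphatase that switches on pyruvate dehydrogenase, read 12.52, 12.71 and 12.50 in T3 livers, against 11.42, 11.32 and 11.51 in control livers, and rose by 1.16 (SE 0.11, adjusted p = 3.2e-05). Ppp1r3b, a subunit that targets a phosphatase to glycogen, read 10.73, 10.83 and 10.71 in T3 livers, against 8.81, 8.99 and 10.08 in control livers, and rose by 1.46 (SE 0.25, adjusted p = 0.0017). Its lowest T3 array was above its highest control array by less than the spread among the controls. Slc2a2, the main glucose carrier of hepatocytes, read 10.65, 10.24 and 10.36 in T3 livers, against 11.14, 11.35 and 11.04 in control livers, and fell by 0.76 (SE 0.15, adjusted p = 0.005), while Slc2a1, the carrier of most other tissues, rose by 0.56 (SE 0.098, adjusted p = 0.0022). The rises numbered 5 without control array 1. The falls numbered 4 without control array 1 or T3 array 3 and 3 without control array 2 or T3 array 2.

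Genes that supply NADPH, the reducing agent of fat synthesis, included a large rise and several falls, 2 of 15 higher and 5 lower. Me1, cytosolic malic enzyme and a long-known T3 target, read 10.33, 10.18 and 9.87 in T3 livers, against 8.52, 8.46 and 8.58 in control livers, and rose by 1.60 (SE 0.19, adjusted p = 0.00014). Nadk, NAD kinase, rose by 0.63 (SE 0.09, adjusted p = 0.00057). Acly, ATP citrate lyase, read 11.99, 11.46 and 11.76 in T3 livers, against 12.55, 12.58 and 12.59 in control livers, and fell by 0.84 (SE 0.14, adjusted p = 0.0018). Idh2, mitochondrial isocitrate dehydrogenase, fell by 0.68 (SE 0.13, adjusted p = 0.0032), and Slc25a1, the citrate carrier, fell by 0.55 (SE 0.11, adjusted p = 0.0061). Idh3a, a subunit of the NAD-linked isocitrate dehydrogenase of the citric acid cycle, read 9.33, 9.21 and 9.35 in T3 livers, against 7.53, 7.57 and 7.74 in control livers, and rose by 1.68 (SE 0.10, adjusted p = 8.7e-07). The falls of the NADPH list numbered 3 without control array 1, control array 2 or T3 array 1.

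Of 26 genes of fatty acid synthesis, elongation and desaturation 3 rose and 3 fell, a called share of 23.1% beside 16.1% of all genes. Thrsp, a lipogenic protein long used as a T3 marker, read 13.53, 13.59 and 13.64 in T3 livers, against 10.93, 11.40 and 10.66 in control livers, and rose by 2.59 (SE 0.18, adjusted p = 2.3e-06). Srebf1, the master transcription factor of lipogenesis, read 6.71, 6.58 and 6.80 in T3 livers, against 8.56, 8.46 and 8.18 in control livers, and fell by 1.70 (SE 0.14, adjusted p = 5.7e-06). The groups did not overlap in either gene. Mlxipl, the carbohydrate-responsive transcription factor, rose by 0.50 (SE 0.11, adjusted p = 0.0073), and Acacb, the acetyl-CoA carboxylase of the mitochondrial surface, rose by 0.72 (SE 0.14, adjusted p = 0.0047); both calls were lost with median scaling. The falls numbered 6 without T3 array 1.

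Of 33 lipid droplet and triglyceride genes 11 rose and 3 fell, with a median of 0.12 that was 0.00034 with median scaling, -0.017 without the filter on dim probes, and 0.064, 0.070 and 0.078 without control array 2, control array 3 and T3 array 2. Pnpla2, adipose triglyceride lipase, read 11.89, 11.94 and 12.10 in T3 livers, against 10.82, 10.60 and 10.75 in control livers, and rose by 1.26 (SE 0.12, adjusted p = 2.6e-05). Mgll, monoglyceride lipase, read 11.49, 11.86 and 11.70 in T3 livers, against 10.48, 10.35 and 10.61 in control livers, and rose by 1.20 (SE 0.11, adjusted p = 1.9e-05). Lpin1, a phosphatidate phosphatase, read 9.90, 10.78 and 10.64 in T3 livers, against 7.60, 7.95 and 7.89 in control livers, and rose by 2.62 (SE 0.22, adjusted p = 8.9e-06). All T3 arrays were above all control arrays in these 3 genes. Pnpla2, Mgll and Lpin1 also read higher in XCT790 livers than in control livers, at means of 11.31, 10.96 and 10.53. Without control array 2 the list had 7 rises.

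Acyl-CoA enzymes were called on both sides, 5 of 32 higher and 5 lower. Acot11, a thioesterase induced by cold in brown fat, read 9.10, 9.52 and 8.90 in T3 livers, against 6.59, 6.58 and 6.64 in control livers, and rose by 2.57 (SE 0.14, adjusted p = 5e-07). Acnat2, named for the transfer of acyl groups to amino acids, read 8.25, 8.15 and 8.05 in T3 livers, against 6.24, 6.08 and 6.22 in control livers, and rose by 1.97 (SE 0.11, adjusted p = 3e-07). Acsm5, a medium-chain acyl-CoA synthetase, fell by 0.67 (SE 0.099, adjusted p = 0.00071), and Acsl5, a long-chain one, fell by 0.71 (SE 0.13, adjusted p = 0.0035). The rises of the list numbered 3 without control array 2, T3 array 2 or T3 array 3.

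Lipoprotein genes had 5 of 31 members higher and 5 lower, a called share of 32.3% beside 16.1% of all genes. Mttp, which loads lipid onto apolipoprotein B, rose by 0.55 (SE 0.11, adjusted p = 0.0057) and was no longer called with median scaling. Saa4, a constitutive serum amyloid of high-density lipoprotein, read 12.84, 13.55 and 13.84 in T3 livers, against 11.93, 12.23 and 12.21 in control livers, and rose by 1.28 (SE 0.26, adjusted p = 0.005); it averaged 12.88 with XCT790 alone. Pon1, a lactonase of the same particles, fell by 0.40 (SE 0.088, adjusted p = 0.0087). Apob, the structural protein itself, differed by -0.37 (SE 0.15, adjusted p = 0.12) and was not called. Without control array 1, control array 2 or T3 array 2 the falls numbered 3.

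Mitochondrial carriers had 6 of 35 members higher and 2 lower, with a median of 0.11 and a called share of 22.9% beside 16.1% of all genes. Slc25a45, a carrier of the inner membrane, read 11.53, 11.55 and 11.59 in T3 livers, against 10.26, 9.84 and 10.20 in control livers, and rose by 1.46 (SE 0.13, adjusted p = 1.2e-05). Slc25a42, the coenzyme A carrier, rose by 0.80 (SE 0.13, adjusted p = 0.0011), and Slc25a12, an aspartate and glutamate carrier, rose by 0.72 (SE 0.13, adjusted p = 0.003). Slc25a37, which brings iron into mitochondria, read 7.96, 7.51 and 7.48 in T3 livers, against 8.76, 8.79 and 8.29 in control livers, and fell by 0.96 (SE 0.17, adjusted p = 0.0027). Leaving out T3 array 1 left 3 rises. In the XCT790 pair 6 mitochondrial carriers rose with T3 and 6 fell, with a median of -0.0020.

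Of 27 genes that glucocorticoids induce 13 rose and 3 fell in T3 livers, with a median of 0.73. Fkbp5, a co-chaperone of the glucocorticoid receptor, read 8.67, 9.46 and 9.69 in T3 livers, against 6.53, 6.70 and 6.97 in control livers, and rose by 2.54 (SE 0.23, adjusted p = 1.9e-05). Mt1, a metallothionein that binds zinc, read 12.79, 14.51 and 15.47 in T3 livers, against 11.13, 10.62 and 10.43 in control livers, and rose by 3.53 (SE 0.51, adjusted p = 0.00067). Cebpb, a transcription factor of the acute phase, read 13.11, 13.37 and 13.32 in T3 livers, against 11.22, 11.52 and 11.40 in control livers, and rose by 1.89 (SE 0.12, adjusted p = 8.8e-07). In Fkbp5 and Mt1 the first T3 array was the lowest of its group, and in all 3 genes every T3 array was above every control array. Cdkn1a, a cyclin-dependent kinase inhibitor, read 7.06, 8.94 and 8.27 in T3 livers, against 5.48, 5.29 and 5.53 in control livers, and rose by 2.65 (SE 0.39, adjusted p = 0.00069). Lcn2, an acute-phase protein that captures bacterial iron carriers, read 7.33, 9.33 and 10.83 in T3 livers, against 6.26, 5.91 and 5.84 in control livers, with rose by 3.16 (SE 0.90, adjusted p = 0.031), and that call was lost without any 1 of the control arrays or T3 arrays 2 and 3. The falls of the list numbered 1 without control array 1, control array 2, T3 array 2 or T3 array 3.

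Several of these genes were high in mice given XCT790 without T3. Fkbp5 averaged 9.90 in those livers, Mt1 14.96, Cebpb 12.39, the mTOR inhibitor Ddit4 8.02 and Lcn2 8.39, beside control means of 6.73, 10.73, 11.38, 6.63 and 6.00. In the XCT790 pair, where both groups were injected, 5 members of this list rose with T3 and 4 fell, and the median difference was -0.046. Injection and hormone cannot be told apart for these genes in T3 against control. Serpina6, which encodes the plasma carrier of glucocorticoids, was called in both pairs: it rose by 0.85 (SE 0.14, adjusted p = 0.0014) without XCT790 and differed by 0.65 (adjusted p = 0.0083) with it. Hsd11b1 differed by -0.82 without XCT790 and by -0.58 (adjusted p = 0.0078) with it.

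Clock genes had 7 of 21 members higher and 1 lower. In the XCT790 pair, where both groups were injected, 1 member rose with T3 and 5 fell. The median was 0.19 in T3 against control and -0.12 in that pair. Usp2, a deubiquitinase with a strong daily rhythm, read 10.12, 10.27 and 10.36 in T3 livers, against 9.20, 9.23 and 8.92 in control livers, and rose by 1.13 (SE 0.15, adjusted p = 0.00031). Ciart, a repressor within the clock, read 8.88, 8.66 and 9.25 in T3 livers, against 7.45, 7.54 and 6.92 in control livers, and rose by 1.62 (SE 0.23, adjusted p = 0.00062). Upp2, a uridine phosphorylase, rose by 1.08 (SE 0.16, adjusted p = 0.00078). All 3 were also high with XCT790 alone, at means of 11.08, 9.00 and 11.78, and the sources used here do not give the time of day at which the livers were taken. Clock, the core activator, rose by 0.45 (SE 0.11, adjusted p = 0.018), and Rora, an orphan receptor of the clock, fell by 0.54 (SE 0.15, adjusted p = 0.026). Clock was no longer called without control array 2, T3 array 1 or T3 array 2, and Rora without control array 1, control array 2, T3 array 1 or T3 array 3. The rises numbered 4 without any 1 of the T3 arrays.

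Of 35 genes of the integrated and endoplasmic reticulum stress responses 6 rose and 2 fell. Creld2, an endoplasmic reticulum protein of the unfolded protein response, read 9.33, 10.28 and 9.91 in T3 livers, against 8.04, 8.30 and 8.31 in control livers, and rose by 1.62 (SE 0.20, adjusted p = 0.00019). Fgf21, a hormone that liver releases in fasting and stress, read 7.90, 9.31 and 8.36 in T3 livers, against 6.43, 6.45 and 6.26 in control livers, and rose by 2.14 (SE 0.37, adjusted p = 0.0019). Trib3, a pseudokinase usually raised by the same responses, read 7.12, 7.03 and 6.55 in T3 livers, against 9.28, 8.32 and 8.36 in control livers, and fell by 1.75 (SE 0.29, adjusted p = 0.0014). Among 23 heat shock proteins 3 rose, with Hsph1 as the largest called rise, 0.74 (SE 0.17, adjusted p = 0.013), lost without control array 2, which left 1 rise. The falls of the stress list numbered 1 without T3 array 2 or T3 array 3. Of 34 antioxidant genes 3 rose and 5 fell: Cbr1, a carbonyl reductase, rose by 1.83 (SE 0.13, adjusted p = 2.6e-06), Glrx, glutaredoxin, rose by 0.98 (SE 0.10, adjusted p = 6e-05), Srxn1, sulfiredoxin, fell by 0.70 (SE 0.13, adjusted p = 0.0034), and Gclc, the catalytic subunit of glutathione synthesis, fell by 1.04 (SE 0.20, adjusted p = 0.0036), with 1 of 3 T3 arrays well above background. The antioxidant falls numbered 3 without control array 2 or control array 3.

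Metallothioneins and zinc carriers were split. Slc39a4, a zinc importer, read 9.61, 8.80 and 9.47 in T3 livers, against 10.75, 11.10 and 10.71 in control livers, and fell by 1.56 (SE 0.22, adjusted p = 0.00057), while Slc39a7, which releases zinc from the endoplasmic reticulum, rose by 0.60 (SE 0.12, adjusted p = 0.0044). The counts of the list were 2 of 17 higher and 3 lower, with 4 higher without T3 array 1 and 1 lower without control array 2 or T3 array 3. Its called share was 29.4% beside 16.1% of all genes.

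Of 43 cytoskeleton and junction genes, among them keratins, tubulins and claudins, 10 fell and 1 rose, with a median of -0.031, and 9 or 10 fell whichever of the 6 arrays was left out. In the XCT790 pair, where both groups were injected, 6 members rose with T3 and 4 fell, with a median of 0.064. Krt8 and Krt18, the keratin pair of hepatocytes, moved together. Krt8 read 10.41, 9.64 and 10.21 in T3 livers, against 11.53, 11.84 and 11.78 in control livers, and fell by 1.63 (SE 0.18, adjusted p = 0.0001). Krt18 read 9.06, 8.63 and 9.44 in T3 livers, against 10.33, 10.70 and 10.57 in control livers, and fell by 1.50 (SE 0.19, adjusted p = 0.00026). The groups did not overlap in either keratin. Krt23 read 5.33, 5.33 and 4.82 in T3 livers, against 8.12, 7.59 and 7.82 in control livers, and Cldn1, a tight junction claudin, fell by 0.97 (SE 0.14, adjusted p = 0.00073). Tubb2b, a beta tubulin, read 7.72, 7.29 and 6.61 in T3 livers, against 9.13, 8.85 and 9.20 in control livers, and fell by 1.85 (SE 0.27, adjusted p = 0.00065). Krt18, Cldn1 and Tubb2b also read lower with XCT790 alone than in controls, at means of 9.53, 7.12 and 7.56. Cldn14, another claudin, was the riser, with 0.99 (SE 0.22, adjusted p = 0.0092) and 2 of 3 control arrays well above background.

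Of 43 tested genes of cell division 3 rose and 5 fell, a called share of 18.6% beside 16.1% of all genes. In the XCT790 pair 9 members rose with T3 and 2 fell. The median was -0.082 in T3 against control and 0.16 in that pair. Rrm2, the regulated subunit of ribonucleotide reductase, read 6.74, 6.91 and 6.53 in T3 livers, against 5.24, 5.03 and 4.73 in control livers, and rose by 1.73 (SE 0.19, adjusted p = 7.5e-05), with 1 of 3 control arrays well above background. Mcm10, a factor of replication forks, read 10.81, 10.68 and 10.87 in T3 livers, against 12.46, 12.69 and 12.54 in control livers, and fell by 1.78 (SE 0.15, adjusted p = 9.4e-06). Cdt1, which licenses origins, fell by 0.86 (SE 0.19, adjusted p = 0.008). Ccnd1, cyclin D1 and a gene often followed after T3 in rodent liver, read 11.14, 10.09 and 11.61 in T3 livers, against 10.14, 9.97 and 9.59 in control livers. The second T3 array lay within the control range, and the difference of 1.05 did not pass (SE 0.39, adjusted p = 0.094). In the XCT790 pair it was 2.07 (adjusted p = 0.0043).

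Nuclear receptors and their cofactors had 8 of 32 members higher and 6 lower. Ppard, a fatty acid receptor, read 8.77, 8.95 and 8.79 in T3 livers, against 7.34, 7.43 and 7.53 in control livers, and rose by 1.41 (SE 0.13, adjusted p = 2.5e-05). Esrrg, a relative of ESRRA, read 6.81, 7.25 and 6.51 in T3 livers, against 5.01, 5.19 and 5.20 in control livers, and rose by 1.72 (SE 0.22, adjusted p = 0.00025), with 2 of 3 control arrays well above background. Hr, a corepressor that is itself a T3 target in brain, rose by 1.38 (SE 0.26, adjusted p = 0.0038). Pparg, the adipogenic receptor, read 6.48, 6.51 and 6.71 in T3 livers, against 7.96, 8.14 and 7.98 in control livers, and fell by 1.46 (SE 0.14, adjusted p = 2.9e-05). Nr1i3, the xenobiotic sensor CAR, read 9.49, 8.97 and 9.46 in T3 livers, against 10.29, 9.97 and 10.19 in control livers, and fell by 0.85 (SE 0.15, adjusted p = 0.003). The rises numbered 5 without control array 1, control array 3 or T3 array 2, and the falls 3 without T3 array 2 or T3 array 3.

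Of 40 liver transcription factors 7 rose and 5 fell. Klf13, a Krüppel-like transcription factor, read 9.69, 9.28 and 9.40 in T3 livers, against 8.25, 8.60 and 8.46 in control livers, and rose by 1.02 (SE 0.13, adjusted p = 0.00027). Hhex, a homeobox factor of liver development, read 10.34, 9.81 and 9.91 in T3 livers, against 11.32, 11.25 and 10.87 in control livers, and fell by 1.13 (SE 0.18, adjusted p = 0.0013). Klf9, a relative of Klf13 known as a direct T3 target in several tissues, was not called, with 12.11, 12.19 and 12.18 in T3 livers, against 11.80, 12.17 and 11.94 in control livers and overlapping groups. The falls numbered between 2 and 5 with 1 array left out, and they were 2 without control array 1 and 3 without control array 2, T3 array 1 or T3 array 2.

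In 2 lists of signalling genes the called shares were 22.9% and 21.6%, beside 16.1% of all genes, a share that 39 of the 48 lists passed. Of 35 insulin and FOXO genes 5 rose and 3 fell. In the XCT790 pair 0 rose with T3 and 1 fell. The median was 0.045 in T3 against control and -0.066 in that pair. Foxo1, the transcription factor that insulin keeps out of the nucleus, read 8.83, 9.35 and 9.02 in T3 livers, against 7.58, 7.45 and 7.95 in control livers, and rose by 1.40 (SE 0.18, adjusted p = 0.00026). Of 37 genes of Ras, MAP kinase and EGF signalling 6 rose and 2 fell, and in the XCT790 pair 4 rose with T3 and 3 fell. Jun, a subunit of the transcription factor AP-1, read 7.02, 7.70 and 7.84 in T3 livers, against 5.99, 6.39 and 6.42 in control livers, and rose by 1.25 (SE 0.24, adjusted p = 0.0035). Fgf1, a fibroblast growth factor, rose by 0.78 (SE 0.13, adjusted p = 0.0016), and Mapk14, the p38 kinase, rose by 0.61 (SE 0.11, adjusted p = 0.002). Insulin list rises numbered 3 without control array 2, T3 array 2 or T3 array 3, and falls 5 without control array 1.

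Markers of the zones of the liver lobule differed in their counts. Of 31 pericentral markers 12 fell and 4 rose, with a median of -0.28, and 11 or 12 fell with any 1 array left out. Of 31 periportal markers 6 fell and 6 rose, with a median of -0.15. Many of the pericentral falls are detoxifying enzymes named above, among them Cyp1a2, Cyp2c29 and Gstm1. Glul, glutamine synthetase of the cells next to the central vein, was not called, with 6.75, 7.08 and 7.06 in T3 livers, against 6.92, 6.58 and 6.47 in control livers. Ctsc, a lysosomal protease listed as periportal, read 11.55, 11.88 and 11.84 in T3 livers, against 10.44, 10.28 and 9.94 in control livers, and rose by 1.54 (SE 0.19, adjusted p = 0.00024). The periportal rises numbered 2 without control array 1, control array 2 or T3 array 3, and 3 without T3 array 1 or T3 array 2.

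Of 34 listed proteasome subunits 3 fell, and 5 of the 34 differences were above 0, with a median of -0.18. At an unadjusted p under 0.05, 10 were lower and 1 was higher. The 3 calls, Psmd1, Psma5 and Psmc4, were differences of -0.36, -0.34 and -0.32, and each call was lost with median scaling and without control array 3, T3 array 2 or T3 array 3. The list does not cover every subunit. Among 10 tested genes with symbols starting in Psmb, the beta subunits, 2 rose and 1 fell, all outside the calls of the list. Of 42 translation genes 2 rose and 1 fell: Eif4ebp3, a translation repressor, read 7.71, 8.08 and 8.75 in T3 livers, against 6.36, 6.37 and 5.68 in control livers, and rose by 2.05 (SE 0.25, adjusted p = 0.00016), and it averaged 8.22 with XCT790 alone. Of 40 secretory pathway genes 2 rose, and 30 of the 40 differences were above 0. The called shares of the proteasome, translation and secretory lists were 8.82%, 7.14% and 5%, all below the 16.1% of all genes. Srprb, a subunit of the signal recognition particle receptor, rose by 0.66 (SE 0.12, adjusted p = 0.0034), and Sec61b, of the translocation channel, rose by 0.41 (SE 0.091, adjusted p = 0.0083); averaging over probes ended the first call and median scaling the second.

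Of 33 plasma binding proteins and hormones 6 rose and 5 fell. Inhbe, an activin subunit, read 7.13, 7.74 and 7.28 in T3 livers, against 9.02, 8.64 and 9.71 in control livers, and fell by 1.74 (SE 0.23, adjusted p = 0.00034). The rises numbered 3 without control array 1, T3 array 2 or T3 array 3. Of 37 genes listed under coagulation and fibrinolysis 1 rose and 3 fell, a called share of 10.8% beside 16.1% of all genes. The riser, Mbl2, mannose-binding lectin, is not a clotting factor; it rose by 0.64 (SE 0.11, adjusted p = 0.002). F11, factor XI, fell by 0.57 (SE 0.11, adjusted p = 0.0032), and Proc, protein C, fell by 0.40 (SE 0.091, adjusted p = 0.01). Of 24 complement genes 3 rose and 2 fell, a called share of 20.8% beside 16.1% of all genes. The 3 risers, C1qa, C1qb and C1qc, are made by macrophages, and the fallers, C6 and C8b, by hepatocytes. None of the 3 risers was called without control array 2, control array 3, T3 array 2 or T3 array 3, or with median scaling. C8b was no longer called without control array 2, control array 3, T3 array 1 or T3 array 2.

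Iron and heme genes had 4 of 35 members higher and 7 lower. Alas2, the red cell form of the first enzyme of heme synthesis, read 10.48, 10.30 and 10.06 in T3 livers, against 11.47, 11.51 and 11.58 in control livers, and fell by 1.23 (SE 0.13, adjusted p = 7.2e-05). Blvrb, a biliverdin reductase, fell by 0.68 (SE 0.099, adjusted p = 0.00067), and Ireb2, a sensor of cellular iron, fell by 0.72 (SE 0.12, adjusted p = 0.0014). Hmox2, the constitutive heme oxygenase, read 9.45, 9.66 and 9.46 in T3 livers, against 8.71, 8.76 and 8.71 in control livers, and rose by 0.80 (SE 0.12, adjusted p = 0.00064). Flvcr1, a heme exporter, rose by 0.58 (SE 0.11, adjusted p = 0.0036). Without T3 array 2 the falls numbered 4.

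Kupffer cell markers were higher in T3 livers. Of 16 tested, 10 rose, with a median of 0.74, beside 7.24% of all genes higher. Cd163, a hemoglobin scavenger receptor, read 8.87, 8.94 and 9.64 in T3 livers, against 8.00, 7.49 and 7.72 in control livers, and rose by 1.41 (SE 0.25, adjusted p = 0.0025). Timd4, a receptor for dying cells, read 7.15, 6.98 and 7.11 in T3 livers, against 5.95, 5.75 and 5.78 in control livers, and rose by 1.25 (SE 0.16, adjusted p = 0.00027). C1qb read 9.88, 9.88 and 10.08 in T3 livers, against 9.59, 9.12 and 8.75 in control livers, and rose by 0.79 (SE 0.21, adjusted p = 0.024). The summed intensity of the list was 13902.7 to 14272.3 on T3 arrays and 7259.53 to 11655.8 on control arrays. Controls spread more widely than T3 arrays, and the count of rises was 5 without T3 array 1, 3 without T3 array 2 or T3 array 3, 2 without control array 2 or control array 3, and 11 without control array 1. With median scaling it was 3. In bulk tissue, fewer or more cells of a type and less or more RNA per cell cannot be told apart.

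Of 18 sinusoidal endothelial markers 0 were called in limma's test and 4 had an unadjusted p under 0.05, while their summed intensity was 12015.5 to 13323.1 on T3 arrays and 9582.44 to 11779 on control arrays. The test called 2 of them higher without control array 1 and with the T3 and control arrays alone, 3 with offset 50 or the stricter filter, and 4 without background correction, with the deposited matrix or with a robust and trended variance. Lyve1, a hyaluronan receptor, was the nearest, with 7.22, 7.49 and 7.47 in T3 livers, against 6.73, 6.76 and 5.98 in control livers and 0.90 (SE 0.29, adjusted p = 0.056). Of 14 stellate cell markers 2 rose and 1 fell, with sums of 10195.8 to 11543.4 on T3 arrays and 9525.74 to 10302.1 on control arrays. Pdgfra, a growth factor receptor, rose by 0.63 (SE 0.16, adjusted p = 0.02) and was no longer called without control array 1, control array 3, T3 array 2 or T3 array 3. Ngfr, the nerve growth factor receptor, fell by 0.60 (SE 0.13, adjusted p = 0.0059). With 1 array left out the stellate rises numbered 0 or 1. Of 3 tested cholangiocyte markers Sox9, a transcription factor of bile ducts, fell by 0.98 (SE 0.20, adjusted p = 0.0053); the 3 summed to between 227.874 and 283.93 on T3 arrays and between 340.159 and 512.42 on control arrays. Of the lymphocyte list 3 markers passed the filter, too few to describe it.

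Neutrophil and monocyte markers summed to 1259.95, 1651.73 and 3099.2 on the T3 arrays and 1012.21, 892.62 and 794.557 on the control arrays. The list holds Lcn2, also an acute-phase gene of hepatocytes, whose values are given above. Plac8 rose by 0.66 (SE 0.16, adjusted p = 0.016), lost without control array 3 or T3 array 3, and the other 5 of 7 were not called. Of 5 red cell markers, 3 of them globins, Alas2 was the 1 called. The first T3 array stood out, with a sum of 96237.8 beside 48168.3 and 40913.4 on the other T3 arrays and 46132.4 to 56980.4 on the control arrays. The part of blood and of macrophages in the other results was not tested.

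In some genes the T3 difference with XCT790 differed from that without it. Only the control group was not injected, so XCT790 and injection cannot be told apart in this comparison. The interaction was called for 45 of 9747 genes (0.462%), and 38 of those were also called for T3 against control. In 27 of the 38 the T3 difference was smaller in XCT790-treated mice. Lpin1 averaged 10.44 with T3, 7.82 in controls, 10.29 with XCT790 and T3, and 10.53 with XCT790 alone. The interaction was -2.86 (SE 0.31, adjusted p = 0.0042). Plin4, a perilipin of lipid droplets, averaged 7.73 with T3, 6.30 in controls, 7.80 with both compounds, and 9.15 with XCT790 alone, and its interaction was -2.77 (SE 0.50, adjusted p = 0.038). Its T3 difference without XCT790 was no longer called without control array 2, control array 3 or T3 array 2. These genes and Fkbp5 had a level with XCT790 alone at or above that with T3.

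In other genes the T3 difference was larger with XCT790. Cux2 averaged 7.01 with T3 and 4.66 in controls, against 9.24 with both compounds and 4.90 with XCT790 alone, an interaction of 1.99 (SE 0.35, adjusted p = 0.036). Cux2 was well above background on 0 of 3 control arrays and 1 of 3 arrays with XCT790 alone, so the size of its interaction is not measured. A1bg, a plasma glycoprotein with female-biased levels, averaged 5.22 with T3 and 4.73 in controls, against 7.40 with both compounds and 4.69 with XCT790 alone, an interaction of 2.23 (SE 0.20, adjusted p = 0.0014). The same holds for A1bg, well above background on no control array and no array with XCT790 alone. Mvd, an enzyme of the mevalonate pathway, rose by 0.86 (SE 0.21, adjusted p = 0.014) without XCT790 and differed by 2.77 (adjusted p = 3.8e-06) with it; its call without XCT790 was lost without control array 1 or T3 array 3. The size of this set depended on single arrays: 96 genes were called without T3 array 1, and 19 to 43 without any other 1 of the 12 arrays.

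**Figure D5:**
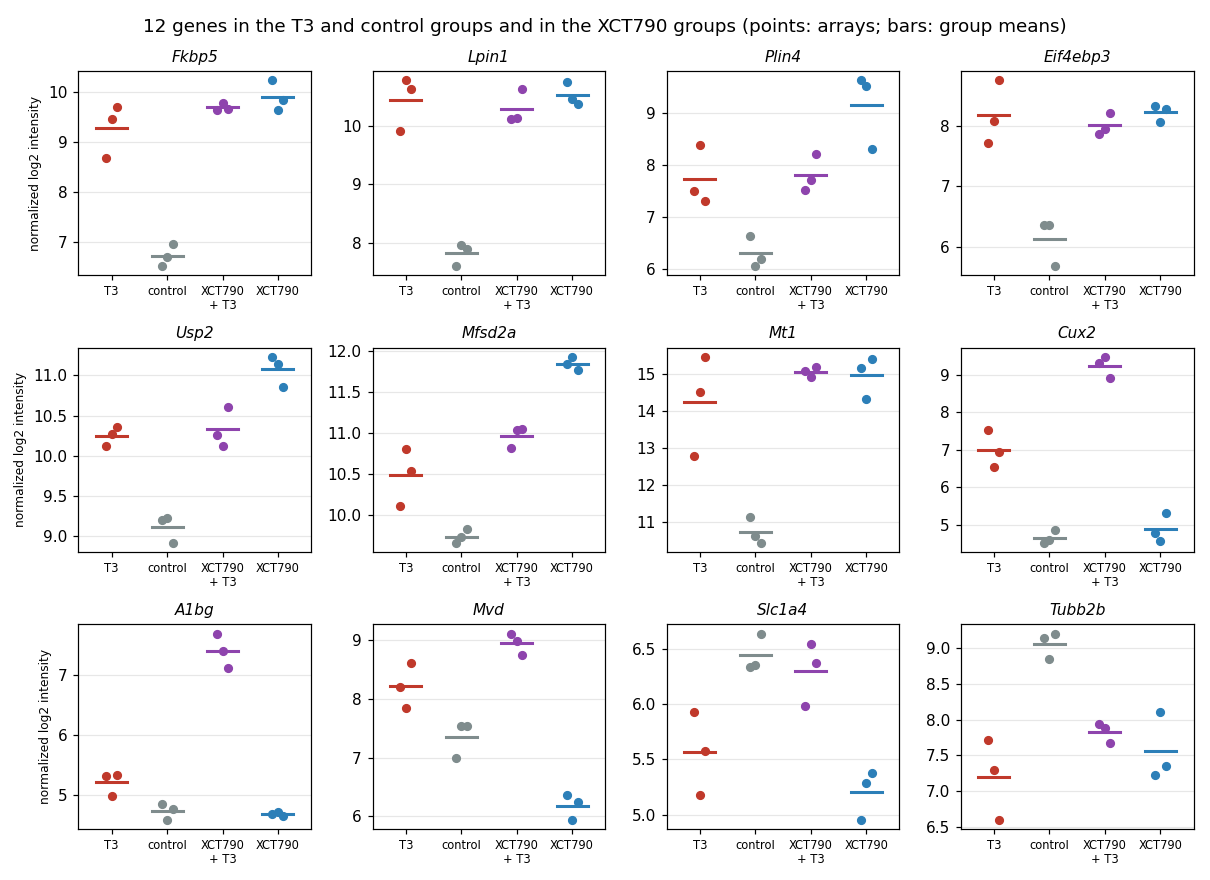
Normalized log2 intensity (vertical axes, each on its own range) of 12 genes in the T3, control, XCT790 with T3 and XCT790 groups, with 3 arrays per group as points and group means as bars. Fkbp5, Lpin1, Plin4, Eif4ebp3, Usp2, Mfsd2a and Mt1 are higher than control in the other 3 groups, while Cux2 and A1bg are highest with both compounds.

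Kept probes without a single gene symbol numbered 2772, and 253 of them (9.13%) were called, 119 higher and 134 lower with T3. Of the 1574 called genes 648 had other kept probes, and in 573 of these all other probes had the same direction. No other probe of a called gene was called in the opposite direction. In 45 called rises the gene was not well above background on any control array, and in 47 called falls it was not well above background on any T3 array.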

How the data were processed

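Each liver sample was read on 1 Illumina bead array as biotinylated cRNA. The authors deposited, per the file headers, non-normalized probe intensity with a detection p-value for every probe and array, and a matrix of processed intensity. The sources used here do not say how the detection p-value was computed. The submitters' processing notes name Partek 6.6, without the step.

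Intensities were background-corrected with limma's normexp model from the detection p-values (offset 16), put on the log2 scale and quantile-normalized (limma 3.58.1, R 4.3.3). A probe was kept where its detection p was below 0.05 on 3 or more of the 12 arrays. The platform annotation gave 1 symbol for 34885 of 45281 probes, several for 18 and none for 10378, and the gene numbers of 34807 were found in RefSeq's table. The kept probe with the highest mean stood for each of 9747 genes. The offset understates changes of dim genes, and only 3 arrays per group limit the precision.

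A model with 1 mean per group was fitted to the 12 arrays by limma (lmFit, eBayes), two-sided, with Benjamini-Hochberg adjustment over all genes and a threshold of 0.05. Contrasts were T3 minus control, the T3 difference with XCT790, and the difference of both. Lists are described by counts and medians, with no test of a list.

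The list members, the 48 lists and the named genes' rule were chosen with earlier results of these data known. The rule named the 16 largest rises and 16 largest falls among called genes with no overlap between groups, up to 5 members per list by p with the first called in each direction, 12 fixed genes, and 5 genes per direction for the interaction, 237 in all. Settings tried instead are given at the end. In simulated data of 9747 genes for T3 against control, 26 of 67 changes of 0.5, 61 of 67 of 1 and 65 of 66 of 2 on the log2 scale were recovered, with 11 false calls of 163. The simulation changed a far smaller share of genes than was called here. It drew independent normal errors with no background floor, so these rates may not carry over to the measured data.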

Additional observations from a re-analysis of the deposited data

Results flagged for a closer look

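In 20 named genes the T3 difference without XCT790 differed from the T3 difference in XCT790-treated mice in limma's interaction test, with adjusted p between 0.0014 and 0.045. Each value below is the T3 difference with XCT790 minus that without it, on the log2 scale, with 3 arrays in each of 4 groups. Of the 4 groups only the control was not injected, so XCT790 and injection cannot be told apart in these values. Of all genes tested 45 had such a difference; the count was 96 without T3 array 1 and 19 to 43 without any other 1 array.

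In 12 of them the gene rose with T3 alone and the difference was smaller or turned with XCT790. Lpin1 had -2.86, Plin4 -2.77 and Fkbp5 -2.75. Eif4ebp3 had -2.26, and Tom1l2, an adaptor of endosomal sorting, -2.08. Its T3 difference was -0.62 with XCT790, and it was at least 2.1-fold higher with T3 alone, since control was not well above background, so the size of this value is not measured. Usp2 had -1.88 and Mfsd2a, a lipid carrier of the cell membrane, -1.63. The T3 differences of these 2 genes were 1.13 and 0.75 without XCT790 and -0.75 and -0.88 with it. Upp2 had -1.20, Cebpb -1.19, Fgf1 -1.06, Klf13 -1.02 and Sult1d1 -0.88. XCT790 alone gave means of 11.78, 12.39, 9.43, 9.28 and 10.47 in those 5 genes, beside control means of 10.89, 11.38, 8.60, 8.44 and 9.43.

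In 4 genes that fell with T3 alone the fall was smaller or turned with XCT790. Olig1 had 1.22, with a T3 difference of -2.29 under XCT790. Cldn1 had 1.36, Tubb2b 2.12 and Slc1a4, a carrier of small neutral amino acids, 1.98. Slc1a4, well above background on 2 of 3 arrays both with T3 and with XCT790 alone, averaged 5.56 with T3 and 6.44 in controls, and 6.30 with both compounds and 5.20 with XCT790 alone. In Mvd, which rose with T3 alone, the rise was larger with XCT790, at 1.90.

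In the other 3 genes the value rests on groups at the background and its size is not measured. Hectd2os, at 1.42, was well above background on no array given T3, with or without XCT790, and averaged 7.17 with XCT790 alone and 8.31 in controls. Cux2, at 1.99, was well above background on no control array and 1 of 3 arrays with XCT790 alone, and A1bg, at 2.23, on none of either; the rise of A1bg with T3 alone was not called in 12 of 16 other settings.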

How the results depend on the processing

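Other settings gave 942 to 1861 called genes for T3 against control beside 1574. Median scaling gave 942 (389 higher, 553 lower), of which 920 were also called in the main setting, and it moved the median over all genes from -0.0074 to -0.040. No background correction gave 1841, the deposited matrix 1843, offset 50 1785, no filter on dim probes 1493, a stricter filter 1793, the mean over a gene's probes 1486, a robust and trended variance 1861, and the T3 and control arrays alone 1309. Leaving out 1 array gave 1128 to 1341 called genes, 520 to 606 higher and 608 to 741 lower. With the label numbers as a replicate block 1529 genes were called (688 higher, 841 lower), 1434 of them also called without it. Deviations of same-numbered T3 and control arrays correlated at 0.042, -0.012 and -0.011, so the numbers were not taken to pair the samples.

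Of 197 called named genes 144 kept their call in each of 16 settings that tested them, and 0 turned direction; median scaling ended 40 calls, among them Fpgs, Mapk14, Mbl2, Slc2a1, Slc39a7, Pon1 and Proc, and averaging over probes that of Slc25a42. With median scaling 3 of 27 one-carbon genes rose instead of 7, 4 of 49 sugar genes rose and 3 fell instead of 8 each, 4 of 21 clock genes rose instead of 7, 4 nuclear receptors rose and 3 fell instead of 8 and 6, 3 liver transcription factors rose instead of 7, and 2 periportal markers rose instead of 6; male-biased genes fell in 11 of 30 and the other oxidizing and hydrolysing enzymes in 19 of 48. The interaction, 45 genes, gave 143 without background correction, 141 with the deposited matrix, 126 with offset 50, 27 without a filter, 91 with a stricter filter, 145 with a robust and trended variance, 25 with the replicate block, and 19 to 96 with 1 array left out; the cause was not tested. Genes that were not called turned sign in a few settings: Cldn7 ran between -0.38 and 0.020 with 1 array left out (turned without control array 1), Krt7 between -0.027 and 0.22 (-0.027 without control array 1 and -0.0023 without T3 array 1), and Coro1a 0.037 as the mean over probes, 0.072 and 0.17 without control arrays 1 and 2, and 0.091 without T3 array 3, in a range of -0.29 to 0.17. Without T3 array 1 the globins Hba-a1, Hbb-bs and Hbb-bt were -0.26, -0.096 and -0.22, and without T3 array 3 they were 0.45, 0.45 and 0.43. Genes not well above background on any array of a group are given bounds for T3 against control; those above it on 1 or 2 arrays of a group are given differences that lean on signal at the background.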
